A study of Arabidopsis thaliana with 27 samples.

Results

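The 10 genes described here encode the light-harvesting antenna of photosystem I, LHCA1 to LHCA6, and the minor antenna of photosystem II, LHCB4.1, LHCB4.2, LHCB5 and LHCB6, in Arabidopsis thaliana. They were chosen by locus identifier from a table of 33039 genes, with earlier results of these data known. All 10 were among the 21396 genes tested, those that reached 1 TPM in 3 or more libraries. TPM is a transcript level per length, relative to all transcripts of the library. RNA of seedlings was sequenced in 27 libraries that form 9 groups of 3. The study concerns a serine of EARLY FLOWERING 3 (ELF3) that its submitters take for a phosphorylation site, and how its change affects flowering and hypocotyl growth. Each of 3 genotypes was sampled at 16, 22 and 29 °C. Wild type was the Columbia accession. The S364P line carries a serine-to-proline change at residue 364 of ELF3, and the insertion line carries a T-DNA in ELF3, both in the Columbia background. The protocol names the insertion mutant ELF3-101 and the other mutant ELF3-16. The labels give no other allele, transgene or agent, and do not state the age of the seedlings, the light regime or how many plants made up a library. The protocol lists Zeitgeber times (hours since lights-on) of 8, 16 and 24 in parallel with the 3 temperatures, which is read here as 1 time for each temperature. On that reading temperature and sampling time cannot be told apart, and genotypes compared at the same temperature share both.

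In the photosystem I antenna of land plants, LHCA1 pairs with LHCA4 and LHCA2 with LHCA3, and these dimers form a belt on the side of the core where they pass excitation energy inward. LHCA5 and LHCA6 are scarce members that link photosystem I to the chloroplast NADH dehydrogenase-like (NDH) complex, which returns electrons from ferredoxin to plastoquinone in cyclic electron flow. LHCB4 (CP29), LHCB5 (CP26) and LHCB6 (CP24) are monomeric antenna proteins that sit between the photosystem II core and its trimeric antenna. Light, the circadian clock and chloroplast signals are known to set the transcript levels of such nuclear antenna genes, and the ELF3 protein holds together the evening complex, which represses transcription as part of that clock.

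The promoters of 2 pairs of members are set side by side here. LHCA1 and LHCA4 transcripts were higher in both lines at each temperature, and LHCA5 and LHCA6 transcripts were lower in both lines at 22 and 29 °C. Each window is the 250 bases before the start of the RefSeq transcript whose length equals the length the table lists, read from the TAIR10.1 assembly 5′ to 3′ on the strand of the gene. The table names no build, but 32373 of 32547 matched identifiers, all 10 members among them, had a RefSeq transcript of the listed length. LHCA1 lies on the minus strand of chromosome 3 (gene 20339504 to 20341176, 4 exons) with its window at chr3:20341177-20341426. LHCA4 lies on the minus strand of chromosome 3 (gene 17493343 to 17495033, 4 exons) with its window at chr3:17495034-17495283. LHCA5 lies on the plus strand of chromosome 1 (gene 17179250 to 17180806, 5 exons) with its window at chr1:17179044-17179293, which reaches past the annotated gene start because the matching transcript begins further in. LHCA6 lies on the plus strand of chromosome 1 (gene 6612630 to 6613972, 3 exons) with its window at chr1:6612380-6612629. Capitals mark the motifs searched on both strands, the evening element AAAATATCT, the CCA1 binding site AAAAATCT, the G-box CACGTG and the I-box GATAAG.
LHCA1: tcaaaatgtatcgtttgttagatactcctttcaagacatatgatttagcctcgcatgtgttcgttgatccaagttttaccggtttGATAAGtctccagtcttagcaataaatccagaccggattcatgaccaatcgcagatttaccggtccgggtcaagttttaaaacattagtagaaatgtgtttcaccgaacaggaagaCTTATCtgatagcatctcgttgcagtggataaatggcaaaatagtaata
LHCA4: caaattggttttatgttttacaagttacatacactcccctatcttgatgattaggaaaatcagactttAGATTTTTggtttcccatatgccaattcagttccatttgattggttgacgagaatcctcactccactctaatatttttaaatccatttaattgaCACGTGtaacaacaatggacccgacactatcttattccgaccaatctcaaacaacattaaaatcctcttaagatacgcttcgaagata
LHCA5: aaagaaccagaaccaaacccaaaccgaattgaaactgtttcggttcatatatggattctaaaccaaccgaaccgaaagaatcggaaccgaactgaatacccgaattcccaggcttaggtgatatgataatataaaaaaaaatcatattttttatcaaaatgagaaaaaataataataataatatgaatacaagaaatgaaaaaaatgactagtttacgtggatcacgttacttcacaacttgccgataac
LHCA6: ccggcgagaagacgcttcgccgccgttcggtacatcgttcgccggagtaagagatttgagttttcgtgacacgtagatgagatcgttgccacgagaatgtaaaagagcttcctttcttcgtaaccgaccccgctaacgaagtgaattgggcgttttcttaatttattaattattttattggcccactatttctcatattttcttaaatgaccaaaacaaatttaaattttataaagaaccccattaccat

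The LHCA1 window held the I-box letters at 165 bases before the transcript start and, on the opposite strand, at 49. The LHCA4 window held the CCA1 letters on the opposite strand at 182 bases and the G-box at 88 bases. No letters of the 4 motifs were found in the LHCA5 and LHCA6 windows, and no matches overlapped each other. Among the other members, LHCB4.1 held a G-box at 74 bases, LHCB4.2 an I-box at 9 bases, and LHCB6 a G-box at 124 and an I-box at 86. The windows of LHCA2, LHCA3 and LHCB5 also held no letters of the 4 motifs, and LHCA3 transcripts, too, were higher in both lines at each temperature. Over the 10 members the evening element was in 0, the CCA1 site in 1, the G-box in 3 and the I-box in 3 windows. Of 27270 windows of protein-coding genes cut the same way, 2.32% held the evening element, 6.64% the CCA1 site, 6.61% the G-box and 12.4% the I-box. These matches describe letters in a window and are not binding sites.

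Each library listed 23430 to 23854 genes above 0 and 19164 to 20084 at 1 TPM or more, and Pearson r over genes between replicate libraries, on log2(TPM + 1), was 0.973 to 0.987. TPM keeps no sequencing depth, so the depth is unknown and no counting interval is given. Nothing in the labels says that libraries of a group came from separate plantings, so p-values measure the spread between these libraries, which may be technical. ELF3 itself stood at 25.0 to 28.9, 18.1 to 23.1 and 38.9 to 41.6 TPM in wild type at 16, 22 and 29 °C. It stood at 29.5 to 32.5, 46.1 to 47.7 and 67.5 to 72.0 TPM in the S364P line. The insertion line gave 30.5 to 33.5, 31.4 to 39.1 and 38.1 to 41.9 TPM. A level over the whole gene does not check an insertion or a changed base. The 5 green-tissue markers, the Rubisco subunit RBCS1A, Rubisco activase (RCA) and the Calvin cycle genes FBA2, GAPB and PRK, were far above 0 in each library, and none of 15 root markers was at 0 throughout. In 4 groups, 5 libraries were the lowest or the highest for 10 of 10 members. Replicate 1 of wild type at 22 °C was the lowest of its group for 10 of 10 members and had the highest root score (the mean log2(TPM + 1) of the root markers) of that group, 3.83 against 3.11 and 3.42. Replicate 2 of the S364P line at 22 °C was the highest for 10 of 10 members with the lowest root score, 2.29 against 2.95 and 2.88. Replicate 1 of the S364P line at 29 °C was the lowest for 10 of 10 members with a root score of 3.23 against 2.26 and 2.24, and replicate 3 of that group was the highest for 10 of 10. Replicate 3 of the insertion line at 16 °C was the lowest for 10 of 10 members, with a root score of 3.71 against 3.68 and 3.39.

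**Figure D1:**
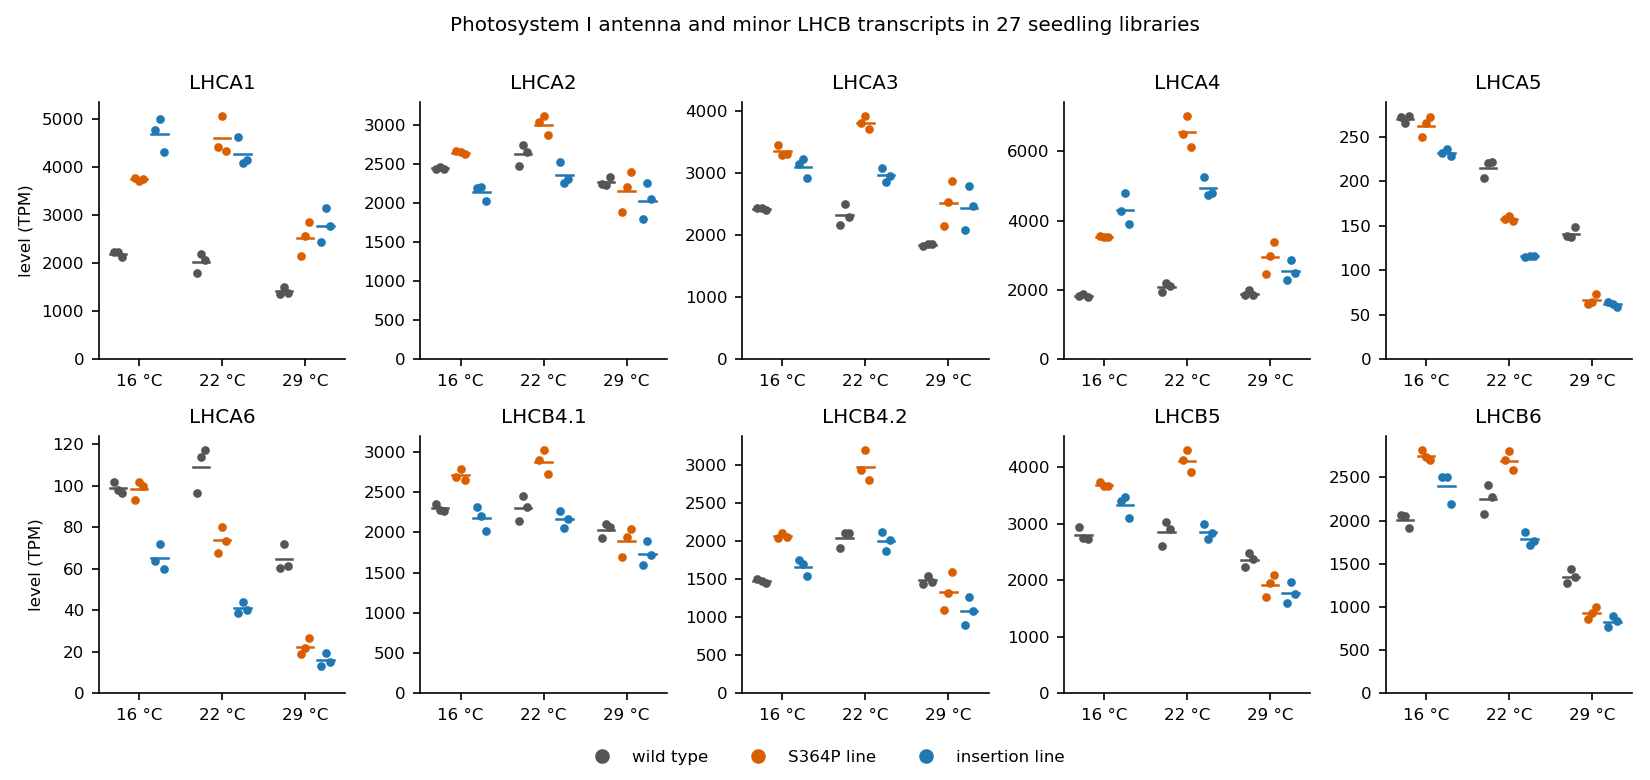
TPM of each of the 10 genes (vertical axes, starting at 0) at 16, 22 and 29 °C (horizontal axes), with 1 point for each library of wild type, the S364P line and the insertion line. LHCA4 reached 6119 to 7015 TPM in the S364P line at 22 °C against 1948 to 2209 TPM in wild type, while LHCA5 and LHCA6 stayed at or below 273 TPM in all libraries.

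The genes for LHCA1, LHCA4 and, by less, LHCA3 were called higher in both ELF3 lines than in wild type at each temperature. Those for LHCA5 and LHCA6 were lower at 22 and 29 °C, and LHCA2 met the threshold in no comparison with wild type. The minor LHCB genes moved up or down with the temperature of sampling. Members were called at a Benjamini-Hochberg adjusted p under 0.05 over all tested genes, in limma on log2(TPM + 1). In the S364P line, 6 of 10 members rose and 0 fell against wild type at 16 °C, where 0.71% of all tested genes were called higher and 0.738% lower. At 22 °C, 7 rose and 2 fell, against 17.3% and 19.9% of all genes. At 29 °C, 3 rose and 4 fell, against 24.5% and 13.7% of all genes. At 16 °C, 0 members were also lower at an unadjusted p under 0.05. The median log2 difference of the members was 0.42, 0.42 and -0.14 at 16, 22 and 29 °C, beside -0.01, -0.03 and 0.07 over all tested genes. Seedlings hold many cell types, so fewer green cells and less RNA per cell cannot be told apart for any gene here. Of the 5 green-tissue markers, 0, 4 and 5 were called lower in the S364P line at 16, 22 and 29 °C. In the insertion line 4, 4 and 5 were, against 10.7%, 18.4% and 13.5% of all genes. RBCS1A was the exception where 4 were called. In limma 0 of these markers were lower at an unadjusted p under 0.05 in the S364P line at 16 °C. Their summed level at 29 °C was 26201 to 27322 TPM in wild type, 14184 to 15324 TPM in the S364P line and 13991 to 15531 TPM in the insertion line, and their part in the members' differences was not tested.

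In the insertion line, 5 of 10 members rose and 2 fell against wild type at 16 °C, where 15.5% of all tested genes were called higher and 10.7% lower. At 22 °C, 3 rose and 3 fell, against 24.6% and 18.4% of all genes, shares not far from those of the members. At 29 °C, 3 rose and 6 fell, against 24.8% and 13.5% of all genes. The members' median log2 difference was 0.21, -0.06 and -0.33, beside 0.03, 0.02 and 0.09 over all genes. Both lines were compared with the same wild-type libraries, so their values are set side by side and are not separate evidence. Under median-of-ratios scaling, which sets the typical gene equal between libraries, the share of all calls that were higher fell from 64.2% to 51% for the S364P line at 29 °C. For the insertion line it fell from 59.2% to 48.8% at 16 °C and from 64.7% to 46.9% at 29 °C. With that scaling 3 in place of 6 members rose in the S364P line at 16 °C, 2 in place of 5 in the insertion line at 16 °C and 1 in place of 3 at 29 °C. Higher calls over all genes in these comparisons numbered 141, 2874 and 3409, in place of 152, 3318 and 5302. At 16 °C the higher share of calls in the S364P line was 59.9% with a pseudocount of 0.1 and 37.4% with a pseudocount of 5, against 49%.

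**Figure D2:**
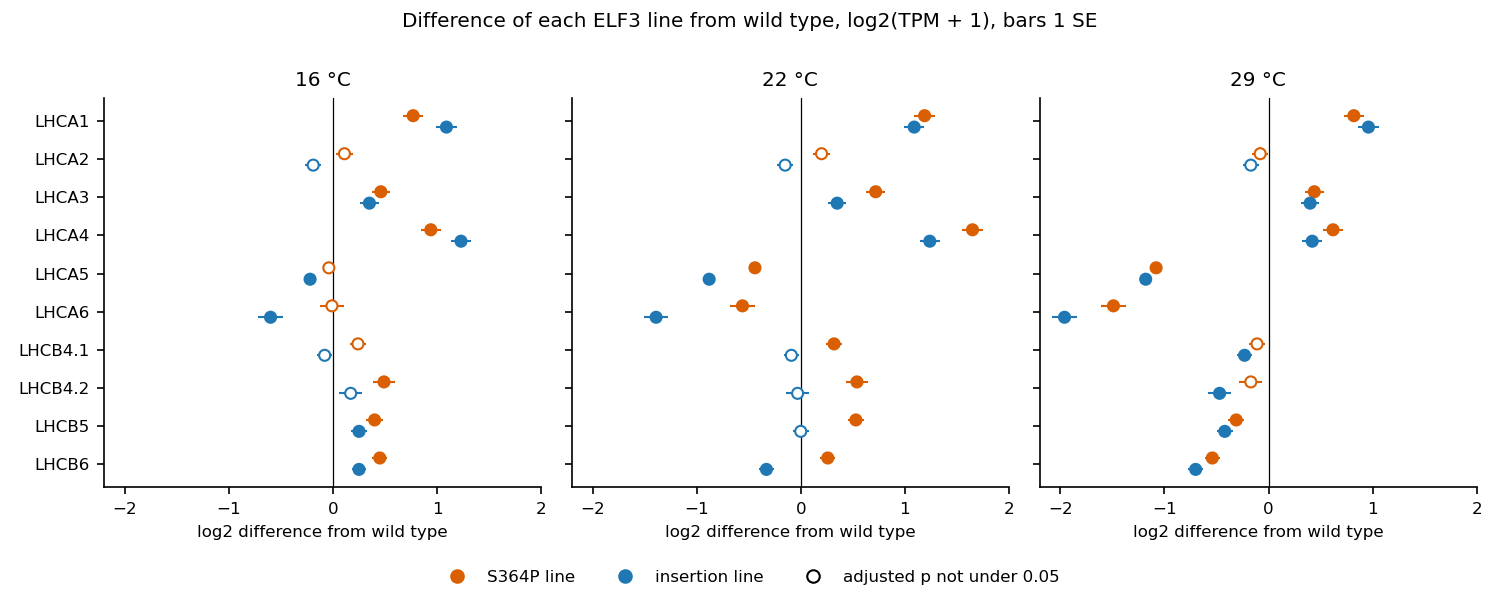
Log2 difference from wild type (horizontal axes, log2(TPM + 1) scale, bars of 1 SE) of each member (vertical axis), in separate panels for 16, 22 and 29 °C. Points stand for the S364P line and the insertion line, filled where called at adjusted p under 0.05. LHCA4 peaked at 1.65 in the S364P line at 22 °C, and LHCA6 reached -1.96 in the insertion line at 29 °C.

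LHCA4 (AT3G47470), the partner of LHCA1 and a holder of far-red-absorbing chlorophylls, showed the highest level of any member. At 16 °C, LHCA4 stood at 1839, 1872 and 1796 TPM in wild type, 3549, 3522 and 3531 TPM in the S364P line and 4283, 4786 and 3894 TPM in the insertion line. At 22 °C, LHCA4 stood at 1948, 2209 and 2119 TPM in wild type, 6504, 7015 and 6119 TPM in the S364P line and 5265, 4754 and 4791 TPM in the insertion line. At 29 °C, LHCA4 stood at 1843, 1992 and 1850 TPM in wild type, 2462, 2978 and 3382 TPM in the S364P line and 2292, 2870 and 2478 TPM in the insertion line. All libraries of both lines were above all wild-type libraries at each temperature, and wild type stayed between 1796 and 2209 TPM. From 16 to 22 °C the S364P libraries moved upward without overlap, while those of the insertion line overlapped between the 2 temperatures, and both lines were lowest at 29 °C. The LHCA4 level in the S364P line was 1.93 times wild type at 16 °C (log2 difference 0.94 ± 0.097, SE, adjusted p = 1.22e-06) and 3.13 times at 22 °C (1.65 ± 0.097, adjusted p = 1.68e-11). It was 1.55 times at 29 °C (0.62 ± 0.097, adjusted p = 2.29e-05). That of the insertion line was 2.35 times wild type at 16 °C (1.23 ± 0.097, adjusted p = 1.64e-09) and 2.36 times at 22 °C (1.24 ± 0.097, adjusted p = 7.09e-10). It was 1.34 times at 29 °C (0.42 ± 0.097, adjusted p = 0.00142). The last of these calls ended under median-of-ratios scaling (adjusted p = 0.0766). By mean TPM the order ran from S364P at 22 °C through the insertion line at 22 and 16 °C, S364P at 16 and 29 °C and the insertion line at 29 °C to wild type at 22, 29 and 16 °C. Libraries overlapped between the insertion line at 22 and 16 °C, between S364P and the insertion line at 29 °C, and between neighbouring wild-type groups, and not between the other neighbours.

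LHCA1 (AT3G54890), the other member of that dimer, had its highest mean in the insertion line at 16 °C. At 16 °C, LHCA1 stood at 2232, 2232 and 2121 TPM in wild type, 3777, 3697 and 3742 TPM in the S364P line and 4773, 4984 and 4316 TPM in the insertion line. At 22 °C, LHCA1 stood at 1801, 2180 and 2053 TPM in wild type, 4421, 5052 and 4318 TPM in the S364P line and 4620, 4069 and 4133 TPM in the insertion line. At 29 °C, LHCA1 stood at 1363, 1502 and 1381 TPM in wild type, 2154, 2570 and 2842 TPM in the S364P line and 2428, 3138 and 2761 TPM in the insertion line. No library of either line fell into the wild-type range at the same temperature, and the lines overlapped each other at 22 and 29 °C. The LHCA1 level in the S364P line was 1.70 times wild type at 16 °C (0.77 ± 0.099, adjusted p = 3.94e-05) and 2.29 times at 22 °C (1.19 ± 0.099, adjusted p = 4.16e-09). It was 1.78 times at 29 °C (0.82 ± 0.099, adjusted p = 7.35e-07). That of the insertion line was 2.14 times wild type at 16 °C (1.09 ± 0.099, adjusted p = 1.48e-08) and 2.12 times at 22 °C (1.09 ± 0.099, adjusted p = 7.84e-09). It was 1.96 times at 29 °C (0.96 ± 0.099, adjusted p = 6.71e-08). The lowest mean was that of wild type at 29 °C, 1415 ± 75.1 TPM (SD, n = 3).

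LHCA3 (AT1G61520), which pairs with LHCA2 on the same belt, rose in both lines by less. At 16 °C, LHCA3 stood at 2437, 2428 and 2408 TPM in wild type, 3447, 3292 and 3297 TPM in the S364P line and 3142, 3224 and 2912 TPM in the insertion line. At 22 °C, LHCA3 stood at 2169, 2493 and 2295 TPM in wild type, 3800, 3913 and 3713 TPM in the S364P line and 3086, 2850 and 2948 TPM in the insertion line. At 29 °C, LHCA3 stood at 1817, 1852 and 1848 TPM in wild type, 2151, 2534 and 2865 TPM in the S364P line and 2079, 2783 and 2466 TPM in the insertion line. Wild-type libraries lay below those of both lines at each temperature. The LHCA3 log2 difference of the S364P line was 0.46 ± 0.089 at 16 °C (adjusted p = 0.00502), 0.72 ± 0.089 at 22 °C (adjusted p = 1.62e-06) and 0.44 ± 0.089 at 29 °C (adjusted p = 4.13e-04). That of the insertion line was 0.35 ± 0.089 at 16 °C (adjusted p = 0.00505), 0.35 ± 0.089 at 22 °C (adjusted p = 0.0026) and 0.40 ± 0.089 at 29 °C (adjusted p = 0.00108). Under median-of-ratios scaling the LHCA3 calls ended at 16 °C in the S364P line (adjusted p = 0.0576) and at 16 and 29 °C in the insertion line (adjusted p = 0.0627 and 0.0766). Fitted with the compared groups alone, the call at 29 °C in the insertion line ended as well (adjusted p = 0.0504).

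LHCA2 (AT3G61470) was the member whose level varied least with genotype. At 16 °C, LHCA2 stood at 2426, 2459 and 2434 TPM in wild type, 2659, 2648 and 2619 TPM in the S364P line and 2190, 2208 and 2028 TPM in the insertion line. At 22 °C, LHCA2 stood at 2476, 2734 and 2643 TPM in wild type, 3027, 3107 and 2867 TPM in the S364P line and 2518, 2247 and 2305 TPM in the insertion line. At 29 °C, LHCA2 stood at 2239, 2233 and 2330 TPM in wild type, 1878, 2196 and 2392 TPM in the S364P line and 1791, 2250 and 2043 TPM in the insertion line. The S364P libraries were above wild type at 16 and 22 °C and the insertion libraries below it at 16 °C, and the ranges overlapped elsewhere. Its log2 difference from wild type was 0.11 ± 0.078, 0.20 ± 0.078 and -0.08 ± 0.078 in the S364P line (adjusted p = 0.812, 0.0508 and 0.447 at 16, 22 and 29 °C). In the insertion line it was -0.19 ± 0.078, -0.15 ± 0.078 and -0.17 ± 0.078 (adjusted p = 0.0787, 0.123 and 0.0976). None of the 6 met the threshold, and several lay close to it. The call at 22 °C in the S364P line was gained with a filter at 5 TPM (adjusted p = 0.0408) and without replicate 3 of that group (adjusted p = 0.0494). Under quantile normalization LHCA2 was called lower in the insertion line at 16 and 29 °C (adjusted p = 0.0239 and 0.00266).

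The genes for LHCA5 and LHCA6, the linkers between photosystem I and the NDH complex, were the members with the lowest levels and the largest falls. At 16 °C, LHCA5 (AT1G45474) stood at 272, 265 and 273 TPM in wild type, 250, 265 and 272 TPM in the S364P line and 232, 236 and 228 TPM in the insertion line. At 22 °C, LHCA5 stood at 203, 220 and 221 TPM in wild type, 158, 161 and 155 TPM in the S364P line and 115, 116 and 116 TPM in the insertion line. At 29 °C, LHCA5 stood at 138, 137 and 148 TPM in wild type, 61.5, 64.2 and 73.5 TPM in the S364P line and 63.9, 61.9 and 58.8 TPM in the insertion line. The S364P libraries overlapped wild type at 16 °C and lay wholly below it at 22 and 29 °C, and the insertion libraries lay below wild type throughout. LHCA5 in the S364P line had a log2 difference of -0.04 ± 0.054 at 16 °C (adjusted p = 0.958), fell by 0.44 ± 0.054 at 22 °C (adjusted p = 1.39e-06) and fell by 1.08 ± 0.054 at 29 °C (adjusted p = 6.16e-13). Insertion-line LHCA5 fell by 0.22 ± 0.054 log2 at 16 °C (adjusted p = 0.00392), by 0.88 ± 0.054 at 22 °C (adjusted p = 1.15e-11) and by 1.18 ± 0.054 at 29 °C (adjusted p = 1.32e-13). The call at 16 °C ended under quantile normalization (adjusted p = 0.0581).

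At 16 °C, LHCA6 (AT1G19150) stood at 102, 97.7 and 96.7 TPM in wild type, 93.2, 102 and 100 TPM in the S364P line and 63.6, 71.8 and 59.9 TPM in the insertion line. At 22 °C, LHCA6 stood at 96.6, 114 and 117 TPM in wild type, 67.7, 80.2 and 73.3 TPM in the S364P line and 38.5, 44.1 and 40.1 TPM in the insertion line. At 29 °C, LHCA6 stood at 60.6, 71.9 and 61.1 TPM in wild type, 19.1, 21.7 and 26.6 TPM in the S364P line and 13.3, 19.4 and 15.3 TPM in the insertion line. The order of genotypes was wild type, S364P, insertion line at 22 °C without overlap, and at 29 °C both lines lay far below wild type and overlapped each other. LHCA6 in the S364P line had a log2 difference of -0.01 ± 0.118 at 16 °C (adjusted p = 1), fell by 0.56 ± 0.118 at 22 °C (adjusted p = 8.04e-04) and fell by 1.49 ± 0.118 at 29 °C (adjusted p = 1.39e-09), where wild type was 2.87 times higher. Insertion-line LHCA6 fell by 0.60 ± 0.118 at 16 °C (adjusted p = 5.13e-04), by 1.39 ± 0.118 at 22 °C (adjusted p = 2.72e-09) and by 1.96 ± 0.118 at 29 °C (adjusted p = 1.38e-11), where wild type was 4.03 times higher. These calls of LHCA5 and LHCA6 at 22 and 29 °C held under each alternative run, among them both normalizations and each library left out.

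Of the 4 minor antenna genes, 3 rose in the S364P line at 16 °C, all 4 rose at 22 °C and 2 fell at 29 °C, where 0.71% and 17.3% of all genes were called higher and 13.7% lower. For the insertion line the corresponding counts were 2 higher, then 1 lower, then all 4 lower, against 15.5%, 18.4% and 13.5% of all genes. LHCB6 (AT1G15820, CP24) had the largest falls. At 16 °C, LHCB6 stood at 2062, 2049 and 1920 TPM in wild type, 2813, 2738 and 2707 TPM in the S364P line and 2510, 2506 and 2187 TPM in the insertion line. At 22 °C, LHCB6 stood at 2080, 2418 and 2269 TPM in wild type, 2699, 2804 and 2583 TPM in the S364P line and 1866, 1723 and 1769 TPM in the insertion line. At 29 °C, LHCB6 stood at 1277, 1437 and 1342 TPM in wild type, 865, 929 and 1004 TPM in the S364P line and 769, 894 and 833 TPM in the insertion line. Both lines were above wild type at 16 °C and below it at 29 °C, and at 22 °C they lay on either side of it, with no overlap with wild type in any of these comparisons. LHCB6 in the S364P line rose by 0.45 ± 0.071 log2 at 16 °C (adjusted p = 5.79e-04), rose by 0.26 ± 0.071 at 22 °C (adjusted p = 0.00694) and fell by 0.54 ± 0.071 at 29 °C (adjusted p = 3.07e-06). Insertion-line LHCB6 rose by 0.25 ± 0.071 at 16 °C (adjusted p = 0.0105), fell by 0.33 ± 0.071 at 22 °C (adjusted p = 5.86e-04) and fell by 0.70 ± 0.071 at 29 °C (adjusted p = 6.07e-08). The rise at 22 °C in the S364P line ended under quantile normalization (adjusted p = 0.234), without replicate 1 of wild type (adjusted p = 0.0506) and with the root score as a covariate (adjusted p = 0.209). The rise at 16 °C in the insertion line ended under median-of-ratios scaling (adjusted p = 0.128) and without replicate 3 of wild type (adjusted p = 0.0548).

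LHCB5 (AT4G10340, CP26) had the highest mean of the minor antenna genes in each of the 9 groups, by a narrow margin over LHCB4.1 in both lines at 29 °C. At 16 °C, LHCB5 stood at 2940, 2753 and 2730 TPM in wild type, 3737, 3677 and 3665 TPM in the S364P line and 3414, 3485 and 3113 TPM in the insertion line. At 22 °C, LHCB5 stood at 2609, 3040 and 2919 TPM in wild type, 4130, 4302 and 3912 TPM in the S364P line and 2991, 2733 and 2843 TPM in the insertion line. At 29 °C, LHCB5 stood at 2242, 2482 and 2374 TPM in wild type, 1705, 1957 and 2090 TPM in the S364P line and 1602, 1972 and 1752 TPM in the insertion line. The S364P libraries were above wild type at 16 and 22 °C and below it at 29 °C, while the insertion line overlapped wild type at 22 °C. LHCB5 in the S364P line rose at 16 °C by 0.40 ± 0.079 log2 (adjusted p = 0.00728) and by 0.53 ± 0.079 at 22 °C (adjusted p = 1.93e-05) and fell by 0.31 ± 0.079 at 29 °C (adjusted p = 0.0038). Insertion-line LHCB5 rose by 0.25 ± 0.079 at 16 °C (adjusted p = 0.0231), had a difference at 22 °C of 0.00 ± 0.079 (adjusted p = 0.992), and fell by 0.42 ± 0.079 at 29 °C (adjusted p = 2.13e-04). The rise at 16 °C in the S364P line ended under median-of-ratios scaling and quantile normalization (adjusted p = 0.0952 and 0.345), and the fall at 29 °C ended with the compared groups fitted alone (adjusted p = 0.0685). The rise in the insertion line at 16 °C ended under the same 2 settings (adjusted p = 0.182 and 0.2), without the filter (adjusted p = 0.0513) and without any of 4 libraries in turn, replicates 2 and 3 of wild type and replicates 1 and 2 of the insertion line (adjusted p = 0.074, 0.0781, 0.0684 and 0.089).

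LHCB4.1 (AT5G01530) and LHCB4.2 (AT3G08940) both encode CP29, and their transcripts share no exact stretch longer than 23 bases. At 16 °C, LHCB4.2 stood at 1498, 1475 and 1446 TPM in wild type, 2044, 2098 and 2058 TPM in the S364P line and 1749, 1692 and 1541 TPM in the insertion line. At 22 °C, LHCB4.2 stood at 1902, 2108 and 2108 TPM in wild type, 2929, 3188 and 2799 TPM in the S364P line and 2111, 1863 and 2007 TPM in the insertion line. At 29 °C, LHCB4.2 stood at 1441, 1543 and 1462 TPM in wild type, 1095, 1323 and 1590 TPM in the S364P line and 893, 1266 and 1087 TPM in the insertion line. The S364P libraries were clear of wild type at 16 and 22 °C and spread across it at 29 °C, and the insertion libraries were clear of it at 16 and 29 °C. LHCB4.2 in the S364P line rose by 0.49 ± 0.109 log2 at 16 °C (adjusted p = 0.0183) and by 0.54 ± 0.109 at 22 °C (adjusted p = 4.85e-04). At 29 °C its difference was -0.17 ± 0.109 (adjusted p = 0.245). The call at 16 °C ended under median-of-ratios scaling (adjusted p = 0.102) and without any of the 6 libraries in turn (adjusted p = 0.0586 to 0.0847). At 29 °C a fall was called without replicate 3 of the S364P line (-0.30, adjusted p = 0.0309). The insertion line gave LHCB4.2 differences of 0.17 ± 0.109 at 16 °C (adjusted p = 0.274) and -0.03 ± 0.109 at 22 °C (adjusted p = 0.838) and a fall of -0.47 ± 0.109 at 29 °C (adjusted p = 0.00157).

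LHCB4.1 was the steadier of the CP29 genes. At 16 °C, LHCB4.1 stood at 2356, 2281 and 2264 TPM in wild type, 2690, 2786 and 2648 TPM in the S364P line and 2311, 2197 and 2022 TPM in the insertion line. At 22 °C, LHCB4.1 stood at 2147, 2457 and 2311 TPM in wild type, 2895, 3018 and 2722 TPM in the S364P line and 2265, 2056 and 2162 TPM in the insertion line. At 29 °C, LHCB4.1 stood at 1932, 2098 and 2068 TPM in wild type, 1690, 1947 and 2044 TPM in the S364P line and 1595, 1888 and 1717 TPM in the insertion line. The S364P libraries were above both other groups at 16 and 22 °C, the insertion libraries lay below wild type at 29 °C, and the ranges overlapped otherwise. LHCB4.1 in the S364P line rose by 0.32 ± 0.073 log2 at 22 °C (adjusted p = 0.00167), with differences of 0.24 ± 0.073 at 16 °C (adjusted p = 0.157) and -0.11 ± 0.073 at 29 °C (adjusted p = 0.273). The rise at 22 °C ended with the root score as a covariate (adjusted p = 0.0689). Insertion-line LHCB4.1 fell by 0.23 ± 0.073 at 29 °C (adjusted p = 0.0156), with differences of -0.08 ± 0.073 at 16 °C (adjusted p = 0.462) and -0.09 ± 0.073 at 22 °C (adjusted p = 0.335). The fall at 29 °C ended under quantile normalization (adjusted p = 0.0833), with the compared groups alone (adjusted p = 0.108) and without replicate 2 or 3 of wild type or replicate 1 of the insertion line (adjusted p = 0.0591, 0.0508 and 0.0965). A rarer CP29 gene, LHCB4.3, was at 79.9 ± 7.74 TPM in wild type at 16 °C and 17.1 ± 1.24 TPM at 22 °C, far below both.

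Some root markers were called lower in the S364P line at the warmer temperatures, and in the insertion line a few were called, in both directions. The root score spanned 3.11 to 3.83 in wild type at 22 °C, 2.29 to 2.95 in the S364P line and 2.65 to 3.26 in the insertion line, and 2.93 to 3.66 in wild type and 2.24 to 3.23 in the S364P line at 29 °C, where the insertion line lay within the wild-type range. At 16 °C the scores of the 3 genotypes lay between 3.37 and 3.71. Of 15 root markers, 6 were called lower in the S364P line at 22 °C and 5 at 29 °C, against 19.9% and 13.7% of all genes. In that line the iron transporter IRT1 was at 10.3 against 121 TPM at 22 °C. In the insertion line at 22 °C, 3 were called lower and 1 higher, against 18.4% and 24.6% of all genes. The lower count was near that share and the higher count below it. At 29 °C the insertion line had IRT1 lower and 1 other marker higher, against 13.5% and 24.8% of all genes. The list median was -0.54 and -0.82 in the S364P line and -0.43 and 0.05 in the insertion line at 22 and 29 °C. At 16 °C limma called 0 root markers in the S364P line (0 also at an unadjusted p under 0.05) and 1 higher in the insertion line. Of all genes, 15.5% were called higher in the insertion line at 16 °C. The summed level of the root markers was 2389 to 3272 TPM in wild type, 979 to 1460 TPM in the S364P line and 1127 to 1783 TPM in the insertion line at 22 °C. With the root score as a covariate, an alternative added after the data were seen, 7 in place of 4 members fell in the S364P line at 29 °C and 5 in place of 3 in the insertion line at 22 °C. Over all genes the lower calls went the other way in that fit, to 2302 from 2935 and to 3306 from 3928, and the higher share of calls was 73.5% in place of 64.2% and 63.8% in place of 57.2%. The added calls at 29 °C were LHCA2, LHCB4.1 and LHCB4.2 (adjusted p = 0.0405, 0.00488 and 0.0144), and those at 22 °C were LHCA2 and LHCB4.1 (adjusted p = 0.0105 and 0.0155).

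Set directly against the insertion line at 22 °C, the S364P line was higher for nearly all members. There 9 of 10 members were higher in the S364P line and 0 lower (0 also at an unadjusted p under 0.05 in limma), against 6.18% and 9.45% of all genes, with a median log2 difference of 0.43 beside -0.06. LHCA6 differed most, 73.7 against 40.9 TPM (0.83 ± 0.118, adjusted p = 3.53e-05), followed by LHCB6, 2695 against 1786 TPM (0.59 ± 0.071, adjusted p = 3.88e-06), and LHCB4.2, 2972 against 1994 TPM (0.58 ± 0.109, adjusted p = 8.07e-04). LHCA1 was the exception, at 4597 ± 398 against 4274 ± 301 TPM (0.10 ± 0.099, adjusted p = 0.528), and its libraries overlapped. LHCA3 and LHCA4 were higher by 0.36 ± 0.089 (adjusted p = 0.0074) and 0.41 ± 0.097 (adjusted p = 0.00599), differences no longer seen under quantile normalization (-0.02 and -0.00). The LHCA4 call also ended with the compared groups alone (adjusted p = 0.0638), as did that of LHCA2 (adjusted p = 0.0556). The higher share of all calls was 39.6% here, 55.4% under median-of-ratios scaling and 58.6% under quantile normalization. With the compared groups fitted alone it was 50.2%. Related lists were mostly higher in the S364P line here too, against 6.18% of all genes. Higher were 10 of 12 nuclear photosystem I core subunits, 9 of 11 photosystem II subunits and 7 of 9 major trimeric antenna genes. So were 10 of 17 NDH subunits and 4 of 5 green-tissue markers, with 0 lower in each of these lists. Of 16 genes for antenna import, insertion and regulation, 10 were higher and 2 lower.

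At 16 °C, 5 members were higher in the S364P line than in the insertion line and 2 lower, against 7% and 12.2% of all genes. LHCA6 and LHCB4.1 were higher by 0.59 ± 0.118 (adjusted p = 8.06e-04) and 0.32 ± 0.073 (adjusted p = 0.00326), and LHCA2 by 0.30 ± 0.078 (adjusted p = 0.00709). LHCA1 and LHCA4 were lower in the S364P line, by -0.32 ± 0.099 (adjusted p = 0.0229) and -0.28 ± 0.097 (adjusted p = 0.0419). Both of these calls ended without any 1 S364P library or replicate 1 or 2 of the insertion line (adjusted p = 0.0534 to 0.199) and under median-of-ratios scaling (adjusted p = 0.178 and 0.252), where the higher share of all calls was 53.2% in place of 36.4% (50.7% under quantile normalization). LHCB4.2 (0.32 ± 0.109, adjusted p = 0.0437) and LHCA5 (0.17 ± 0.054, adjusted p = 0.0244) were higher too. The LHCB4.2 call ended without any 1 of the 6 libraries (adjusted p = 0.0502 to 0.16), and that of LHCA5 without replicate 2 or 3 of the S364P line or 1 or 3 of the insertion line (adjusted p = 0.0535 to 0.107). At 29 °C limma called 0 of 10 members in either direction, against 0.659% and 0.341% of all genes, and 4 were higher and 0 lower at an unadjusted p under 0.05. The higher share of all calls at 29 °C was 65.9%, and 94.3% with the compared groups alone. Without replicate 1 of the S364P line, the library lowest for all members, 3 were higher at 29 °C, LHCA4 (0.32, adjusted p = 0.0393), LHCA6 (0.58, adjusted p = 0.0107) and LHCB4.2 (0.44, adjusted p = 0.0182). Without replicate 2 of the insertion line, LHCA6 was higher (0.61, adjusted p = 0.00918).

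Between 16 and 22 °C the members changed little in wild type, where LHCB4.2 rose (0.47 ± 0.109, adjusted p = 0.00169) and LHCA5 fell (-0.33 ± 0.054, adjusted p = 4.39e-05). That is 1 member higher and 1 lower, against 26.5% and 11.7% of all genes. Between the same conditions 3 members of the S364P line rose and 2 fell, against 33.1% and 22.1% of all genes, shares not far from those of the members. LHCA4 rose 1.85 times there (0.89 ± 0.097, adjusted p = 9.25e-08), LHCB4.2 by 0.52 ± 0.109 (adjusted p = 3.36e-04) and LHCA1 by 0.29 ± 0.099 (adjusted p = 0.0151). LHCA5 fell by 0.73 ± 0.054 (adjusted p = 2.33e-10) and LHCA6 by 0.41 ± 0.118 (adjusted p = 0.00514). The LHCA1 rise ended without replicate 2 at 22 °C (adjusted p = 0.0882), under median-of-ratios scaling (adjusted p = 0.242) and with the root score as a covariate (adjusted p = 0.541). The insertion line had 1 member higher and 4 lower, against 31% and 17.3%. LHCA5 fell from 232 ± 4.28 to 116 ± 0.484 TPM (SD, n = 3, adjusted p = 3.25e-12), LHCA6 fell by 0.66 ± 0.118 (adjusted p = 8.82e-05), LHCB6 by 0.42 ± 0.071 (adjusted p = 3.91e-05) and LHCB5 by 0.22 ± 0.079 (adjusted p = 0.0233). The LHCB5 fall ended without replicate 1 or 2 at 16 °C or 2 at 22 °C (adjusted p = 0.0707 to 0.0857). The rise of LHCB4.2 (0.26 ± 0.109, adjusted p = 0.0497) ended under median-of-ratios scaling (adjusted p = 0.361) and without any 1 of replicates 1, 2 and 3 at 16 °C and 1 and 3 at 22 °C (adjusted p = 0.0525 to 0.172). Under median-of-ratios scaling the higher share of all calls was 50% in place of 69.3% in wild type, 47.9% in place of 59.9% in the S364P line and 50.1% in place of 64.1% in the insertion line.

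Between 22 and 29 °C the members fell in all 3 genotypes, while the typical gene shifted upward. The median log2 difference of all tested genes was 0.12 in wild type, 0.22 in the S364P line and 0.19 in the insertion line, against -0.40, -1.13 and -0.79 over the members. In wild type 0 members rose and 8 fell, against 28.8% and 9.05% of all genes. In the S364P line 0 rose and 10 fell, against 43.3% and 10.4%, and in the insertion line 0 rose and 10 fell, against 37.9% and 9.61%. No member was higher at an unadjusted p under 0.05 in any of these limma comparisons. Related lists fell over this step too, against the same shares of all genes. Of 12 nuclear photosystem I core subunits 11, 12 and 12 fell in wild type, the S364P line and the insertion line. Of 11 nuclear photosystem II subunits 10, 11 and 11 fell, and of 9 major trimeric antenna genes 7, 8 and 8. All 5 green-tissue markers fell in each genotype. The only rise in these lists was 1 major antenna gene in the insertion line. LHCA6 fell by 0.75 ± 0.118, 1.68 ± 0.118 and 1.32 ± 0.118 in wild type, the S364P line and the insertion line (adjusted p = 2.99e-05, 1.57e-10 and 1.88e-08). LHCB6 fell from 2256 to 1352 TPM, from 2695 to 933 TPM and from 1786 to 832 TPM (adjusted p = 4.59e-08, 1.80e-13 and 1.31e-10). LHCA4 fell from 6546 to 2941 TPM in the S364P line (-1.16 ± 0.097, adjusted p = 2.09e-09) and from 4937 to 2547 TPM in the insertion line (-0.96 ± 0.097, adjusted p = 9.72e-08), against 2092 to 1895 TPM in wild type (-0.14 ± 0.097, adjusted p = 0.271). LHCA2 fell least of the members in the lines, by 0.48 ± 0.078 and 0.22 ± 0.078 (adjusted p = 2.11e-05 and 0.0233), and the second of these falls ended without replicate 1 at 22 or at 29 °C (adjusted p = 0.119 and 0.172). In wild type LHCA2 fell by 0.21 ± 0.078 (adjusted p = 0.0408), a call that ended without replicate 2 or 3 at 22 °C or any 1 library at 29 °C (adjusted p = 0.0542 to 0.143). The LHCB5 fall in wild type (-0.27 ± 0.079, adjusted p = 0.00977) ended without replicate 2 at 22 °C or 1 at 29 °C (adjusted p = 0.0595 and 0.0519). Under median-of-ratios scaling the higher share of all calls was 49.2%, 53.2% and 47.1% in place of 76.1%, 80.6% and 79.8%, and 9, 10 and 10 members fell. Lower calls over all genes then numbered 3681, 4222 and 4113, in place of 1937, 2224 and 2056. Under quantile normalization 6, 10 and 8 members fell, beside 3629, 4507 and 3914 lower calls over all genes.

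The change with temperature was itself compared between each line and wild type by interaction terms. From 16 to 22 °C, the S364P change was more positive for LHCA4 (0.70 ± 0.137, adjusted p = 0.00123) and LHCA1 (0.42 ± 0.140, adjusted p = 0.0453). It was more negative for LHCA6 (-0.55 ± 0.167, adjusted p = 0.0301) and LHCA5 (-0.39 ± 0.076, adjusted p = 0.00109), so 2 members were called in each direction, against 7.81% and 6.27% of all genes. The LHCA1 term ended without any 1 library at 16 °C of either genotype, replicate 1 or 3 of wild type at 22 °C or replicate 1 or 2 of the S364P line at 22 °C (adjusted p = 0.0561 to 0.126). The LHCA6 term ended without replicate 2 or 3 of either genotype at 16 °C, 2 or 3 of wild type at 22 °C or 1 or 3 of the S364P line at 22 °C (adjusted p = 0.051 to 0.0754). For the insertion line 0 were more positive and 3 more negative, LHCA6 (-0.79 ± 0.167, adjusted p = 0.00354), LHCA5 (-0.66 ± 0.076, adjusted p = 6.04e-06) and LHCB6 (-0.59 ± 0.101, adjusted p = 5.71e-04), against 5.47% and 4.35%. From 22 to 29 °C, 0 members were more positive and 7 more negative in the S364P line, against 10.5% and 6.94%, with LHCA4 at -1.02 ± 0.137 (adjusted p = 2.00e-05), LHCA6 at -0.93 ± 0.167 (adjusted p = 5.05e-04) and LHCB5 at -0.84 ± 0.112 (adjusted p = 2.04e-05). Insertion-line terms were more positive for 0 members and more negative for 5, against 8.72% and 9.13%, with LHCA4 at -0.82 ± 0.137 (adjusted p = 2.70e-04). The LHCA6 term over that step (-0.56 ± 0.167, adjusted p = 0.0229) ended without any 1 of 5 libraries, replicate 1 of wild type and 2 of the insertion line at 22 °C and replicate 2 of wild type and 1 and 3 of the insertion line at 29 °C (adjusted p = 0.0531 to 0.074). In limma 0 members were more positive at an unadjusted p under 0.05 in each of these last 3 sets. The higher share of all calls for the S364P term from 22 to 29 °C was 60.2%, 46.7% under median-of-ratios scaling and 41.8% under quantile normalization.

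Ratios between members within a library do not change when all its values are scaled by 1 factor, as in median-of-ratios scaling. Quantile normalization is not such a scaling and can change them. LHCA4 over LHCA2 was 0.752 ± 0.0126, 0.799 ± 0.0109 and 0.837 ± 0.0504 (SD, n = 3) in wild type at 16, 22 and 29 °C. It was 1.34 ± 0.00954, 2.18 ± 0.0677 and 1.36 ± 0.0514 in the S364P line and 2.01 ± 0.133, 2.09 ± 0.0188 and 1.26 ± 0.0371 in the insertion line. LHCA1 over LHCA2 was 0.900 ± 0.0253, 0.767 ± 0.0360 and 0.625 ± 0.0421 in wild type. It was 1.42 ± 0.0169, 1.53 ± 0.0856 and 1.17 ± 0.0207 in the S364P line and 2.19 ± 0.0648, 1.81 ± 0.0209 and 1.37 ± 0.0238 in the insertion line. In each library of both lines, LHCA1 and LHCA4 exceeded LHCA2, and in each wild-type library they fell short of it. LHCA6 over LHCA2 was 0.0285 ± 0.00323 in wild type at 29 °C against 0.0104 ± 0.000645 in the S364P line and 0.00785 ± 0.000681 in the insertion line. LHCB6 over LHCB4.1 was 0.665 ± 0.0182 in wild type at 29 °C against 0.493 ± 0.0175 and 0.480 ± 0.00610. The summed LHCA1 to LHCA4 level over the summed minor LHCB level stayed at 1.04 ± 0.0234, 0.956 ± 0.00678 and 1.03 ± 0.0259 in wild type. It was 1.18 ± 0.0149, 1.42 ± 0.0155 and 1.66 ± 0.0461 in the S364P line and 1.49 ± 0.0488, 1.65 ± 0.0328 and 1.80 ± 0.0333 in the insertion line. The 10 genes together made up 1.79%, 1.88% and 1.49% of all TPM in wild type at 16, 22 and 29 °C. They made up 2.48%, 3.08% and 1.63% in the S364P line and 2.41%, 2.35% and 1.53% in the insertion line.

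**Figure D3:**
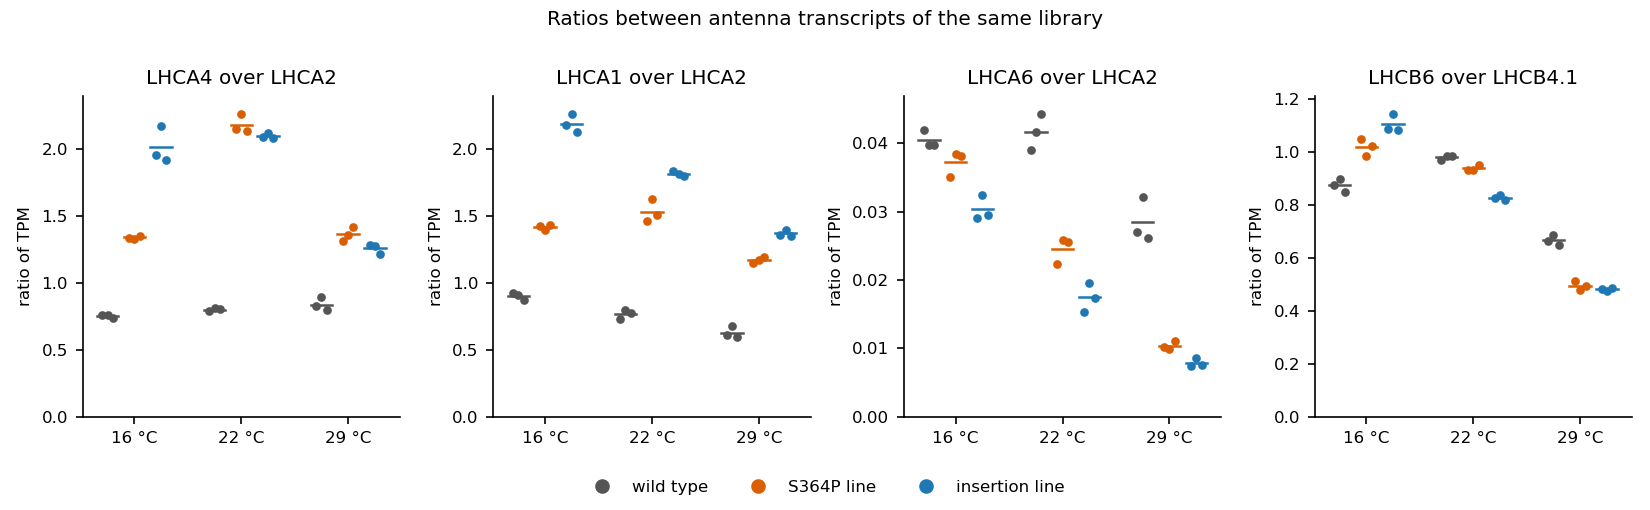
Ratios of TPM within each library (vertical axes, starting at 0) for LHCA4 over LHCA2, LHCA1 over LHCA2, LHCA6 over LHCA2 and LHCB6 over LHCB4.1 at 16, 22 and 29 °C (horizontal axes), 1 point a library. The LHCA4 to LHCA2 ratio of wild type lay between 0.738 and 0.892, below all libraries of both lines.

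Across the 9 group means of log2(TPM + 1), LHCA1, LHCA3 and LHCA4 had similar profiles, with Pearson r of 0.93 between LHCA1 and LHCA3, 0.91 between LHCA1 and LHCA4 and 0.89 between LHCA3 and LHCA4. LHCA5 and LHCA6 resembled each other (0.95) and not LHCA4 (-0.03 and -0.06). They were also close to LHCB6 (0.89 and 0.88) and, by less, to LHCB5 (0.78 and 0.77). LHCA2 was closer to LHCB4.1 (0.93) and LHCB4.2 (0.90) than to its partner LHCA3 (0.51). LHCB5 and LHCB6 were closest among the minor antenna genes (0.97). Among 15205 other tested genes averaging 5 TPM or more, the profiles most like the mean profile of the members were those of the photosystem I core subunits PSAL (0.965), PSAG (0.957) and PSAF (0.948), of CAB3 (0.953), the major antenna gene LHCB1.2, and of PSBW (0.941), a small photosystem II subunit. For single members, the nearest to LHCA5 was ZKT, a thylakoid protein with a PDZ domain (0.999). The nearest to LHCA6 was ALB1, which encodes the D subunit of magnesium chelatase (0.995). The others were PSAF for LHCB6 (0.998), PSAL for LHCB5 (0.978), PSBQ-2 for LHCB4.2 (0.970), PSAE-2 for LHCA4 (0.952) and LHCB3 for LHCA3 (0.914). The nearest to LHCB4.1, LHCA1 and LHCA2 were AT1G42430 (0.960), AT1G02610 (0.955) and AT3G19080 (0.919). These correlations describe 9 points that share libraries and carry no p-value.

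The genes around the antenna were counted in lists drawn up by function, all of whose members were tested. Against wild type, 0.71%, 17.3% and 24.5% of all tested genes were called higher in the S364P line at 16, 22 and 29 °C. Called lower were 0.738%, 19.9% and 13.7%. For the insertion line the shares were 15.5%, 24.6% and 24.8% higher and 10.7%, 18.4% and 13.5% lower. Some list counts lay near these shares, such as the 2 rises among 9 major antenna genes in the insertion line at 22 °C. Of the 9 major trimeric antenna genes LHCB1 to LHCB3, 4, 6 and 1 rose and 0, 0 and 6 fell in the S364P line at 16, 22 and 29 °C, and 3, 2 and 0 rose and 3, 3 and 6 fell in the insertion line. The 4 rises at 16 °C were those of LHCB3 (0.98 ± 0.098), LHCB2.4 (0.67, adjusted p = 0.0192), LHCB2.2 (0.59 ± 0.079) and LHCB2.1 (0.41 ± 0.065), and the 1 rise at 29 °C was that of LHCB3 (0.25, adjusted p = 0.0478). At 16 °C in the insertion line LHCB3 (1.16 ± 0.098), LHCB1.2 (0.56 ± 0.141) and LHCB1.1 (0.49 ± 0.089) rose and LHCB2.4 (-0.81, adjusted p = 2.71e-04), LHCB2.1 (-0.67 ± 0.065) and LHCB1.4 (-0.58 ± 0.167) fell. At 22 °C LHCB3 (0.56 ± 0.098) and LHCB1.2 (0.39 ± 0.141) rose there and LHCB2.1 (-2.09 ± 0.065), LHCB2.2 (-1.39 ± 0.079) and LHCB2.4 (-0.95, adjusted p = 2.05e-05) fell. LHCB3, which belongs to the trimers next to LHCB6, rose from 2378 to 5158 TPM in the S364P line at 22 °C (1.12 ± 0.098, adjusted p = 9.23e-09), while LHCB2.1 fell from 888 to 179 TPM at 29 °C (-2.31 ± 0.065, adjusted p = 3.83e-17). The LHCB1 copies, and the LHCB2 copies, are near-identical to each other, so their separate values are uncertain.

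Of 12 nuclear photosystem I core subunits, 5, 5 and 0 rose and 0, 0 and 11 fell in the S364P line. Over all genes 0.71%, 17.3% and 24.5% rose there and 0.738%, 19.9% and 13.7% fell. In the insertion line 3, 1 and 0 core subunits rose and 1, 9 and 11 fell. The shares of all genes in that line were 15.5%, 24.6% and 24.8% higher and 10.7%, 18.4% and 13.5% lower. At 16 °C the S364P rises were PSAD2 (0.55 ± 0.088), PSAD1 (0.36 ± 0.058), PSAF (0.34 ± 0.058), PSAL (0.30 ± 0.061) and PSAO (0.26 ± 0.058). At 22 °C they were PSAE2 (0.72 ± 0.102, adjusted p = 9.91e-06), PSAL (0.38 ± 0.061), PSAG (0.34 ± 0.088), PSAD2 (0.24 ± 0.088), which docks ferredoxin, and PSAF (0.21 ± 0.058), which docks plastocyanin. At 16 °C in the insertion line PSAD1 (0.28 ± 0.058), PSAE2 (0.28 ± 0.102) and PSAF (0.26 ± 0.058) rose and PSAN (-0.31 ± 0.109) fell, and the 1 rise at 22 °C was that of PSAE2 (0.50). At 29 °C the largest fall in both lines was that of PSAH2, part of the docking site for the trimeric antenna, at 499 and 467 TPM in the S364P and insertion lines against 1304 TPM in wild type (-1.38 ± 0.081 and -1.48 ± 0.081, adjusted p = 8.58e-12 and 2.37e-12). LHCA1, LHCA3 and LHCA4 were called higher at 29 °C in samples where 11 of 12 core genes were called lower. In the insertion line the LHCA3 and LHCA4 calls at 29 °C ended under median-of-ratios scaling. The median of the core list was -0.56 and -0.67 at 29 °C, beside 0.07 and 0.09 over all genes.

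Of 17 nuclear NDH complex subunits, 0 rose and 0, 8 and 15 fell in the S364P line at 16, 22 and 29 °C. Over all genes 0.738%, 19.9% and 13.7% were lower there. In the insertion line 0 rose and 6, 15 and 16 fell, against 10.7%, 18.4% and 13.5% of all genes lower. At 16 °C in the S364P line limma called 0 NDH genes (0 also at an unadjusted p under 0.05), where LHCA5 and LHCA6 were not called either. The NDH subunit gene NDHT fell from 12.7 to 2.45 TPM in the S364P line at 29 °C (-1.98 ± 0.126, adjusted p = 3.30e-11) and PNSB1 from 77.3 to 23.3 TPM (-1.69 ± 0.055, adjusted p = 5.51e-16). In the insertion line at 29 °C PNSL3 fell from 32.1 to 7.50 TPM (-1.97 ± 0.102, adjusted p = 1.01e-12). The list median was -0.02, -0.24 and -0.94 in the S364P line and -0.15, -0.47 and -1.23 in the insertion line.

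Of 11 nuclear photosystem II subunits, 1, 1 and 0 rose and 0, 4 and 10 fell in the S364P line. In the insertion line 2, 0 and 0 rose and 4, 7 and 10 fell. The all-gene shares beside the lists of this paragraph were 0.71%, 17.3% and 24.5% higher and 0.738%, 19.9% and 13.7% lower in the S364P line. For the insertion line they were 15.5%, 24.6% and 24.8% higher and 10.7%, 18.4% and 13.5% lower. The S364P rises were those of PSBS (0.27 ± 0.048), the sensor of excess light, at 16 °C and of PSBW (0.39 ± 0.080) at 22 °C. The S364P falls at 22 °C were those of PSBO2 (-0.71 ± 0.088), PSBTN (-0.35 ± 0.064), PSBY (-0.22 ± 0.068) and PSBQ1 (-0.21 ± 0.070). In the insertion line at 16 °C PSBW (0.44 ± 0.080) and PSBS (0.19 ± 0.048) rose, and PSBO2 (-0.45 ± 0.088), PSBX (-0.36 ± 0.090), PSBQ1 (-0.30 ± 0.070) and PSBTN (-0.21 ± 0.064) fell. PSBO2, of the oxygen-evolving complex, fell by 1.35 ± 0.088 and 1.51 ± 0.088 in the lines at 29 °C (adjusted p = 5.64e-11 and 8.02e-12). Of 16 genes for antenna import, insertion and regulation, 0, 2 and 3 rose and 0, 8 and 13 fell in the S364P line, and 2, 2 and 1 rose and 6, 11 and 14 fell in the insertion line. CAO, which makes the chlorophyll b that these antenna proteins bind, stood at 345, 276 and 113 TPM in wild type at 16, 22 and 29 °C and at 143, 72.9 and 29.3 TPM in the insertion line (-1.26 ± 0.060, -1.91 ± 0.060 and -1.91 ± 0.060, adjusted p = 4.31e-13, 1.55e-16 and 3.28e-16). GLK2, a transcription factor that activates antenna genes, fell by 1.46 ± 0.056 in the insertion line and 1.38 ± 0.056 in the S364P line at 29 °C (adjusted p = 7.80e-15 and 1.92e-14). The rises were those of NYC1, a chlorophyll b reductase (0.40 ± 0.072 in the S364P line and 0.68 ± 0.072 in the insertion line at 22 °C), TAP38, a phosphatase of the trimeric antenna, and, in the S364P line at 29 °C, SGR1, which removes magnesium from chlorophyll (0.30, adjusted p = 0.0238). Of LHCB4.3 and the rare LHCB7, 0, 1 and 2 fell in the S364P line and both fell in the insertion line at each temperature.

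**Figure D4:**
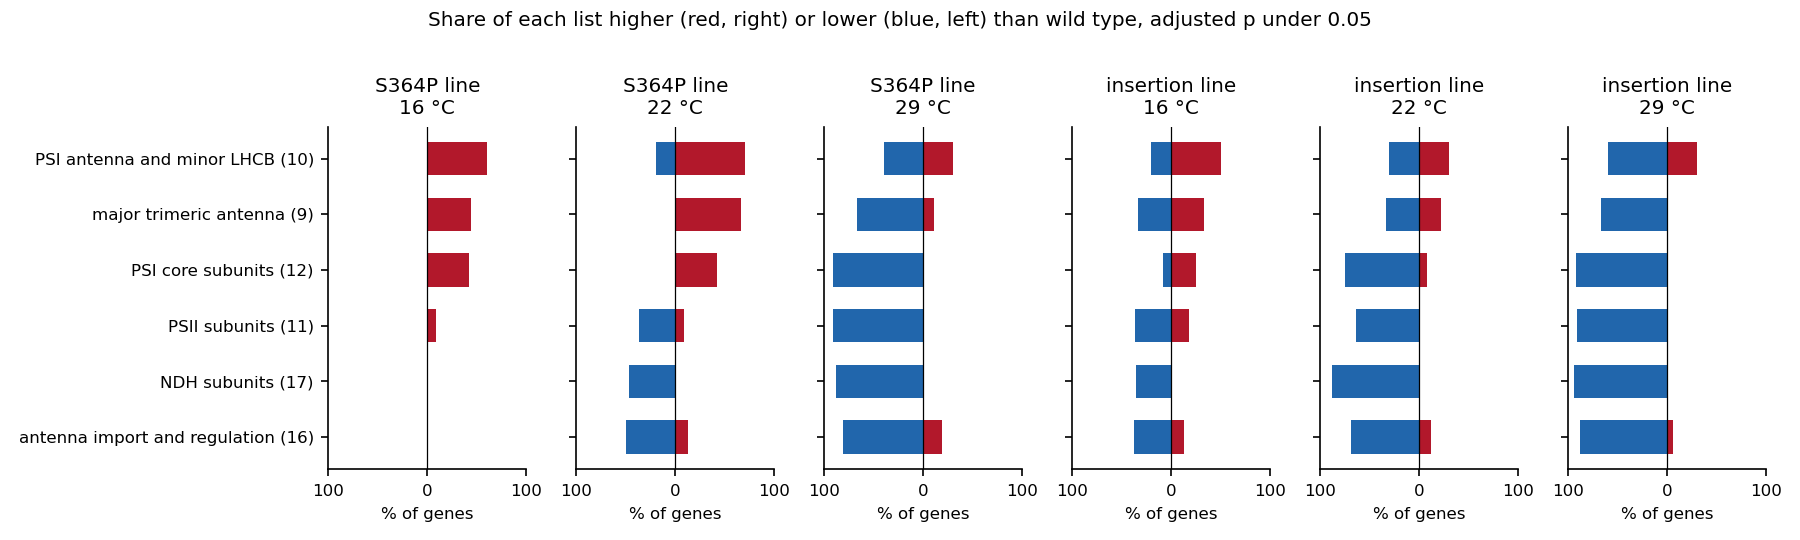
Percent of each gene list called higher (right of 0) and lower (left of 0) than wild type at adjusted p under 0.05, for the S364P and insertion lines at 16, 22 and 29 °C. At 29 °C 15 and 16 of 17 NDH genes and 11 of 12 photosystem I core genes were lower, while the 10 antenna members were split between 3 higher and 4 or 6 lower. Of all genes, 24.5% and 24.8% were higher and 13.7% and 13.5% lower at 29 °C in the S364P and insertion lines. The insertion-line calls of LHCA3 and LHCA4 at 29 °C ended under median-of-ratios scaling.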

How the data were processed

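RNA-seq libraries of seedlings, 3 for each of 9 groups of genotype and temperature, entered the analysis as one table of TPM per gene that the authors deposited; per the file headers it also holds mean columns, which differed from the means of the 3 libraries by at most 3.3e-05 TPM. Aligner, quantifier and build: not given in the sources used here. The table held 33039 genes, 207 of them assembled loci without a locus identifier, and 1 line without values. TPM keeps no read number, so depth and its precision are unknown. For the insertion line at 16 °C, replicate numbers differ between labels and columns, so 2 columns were tied to the group alone and are numbered here as in the columns.

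Values were tested with limma 3.58.1 (R 4.3.3) on log2(TPM + 1) in 1 model of 9 group means with a trended prior (18 residual and 3.17 prior degrees of freedom), two-sided. Genes that reached 1 TPM in 3 or more libraries were kept, and Benjamini-Hochberg adjustment ran over these 21396 genes within each of 19 comparisons, called at an adjusted p under 0.05. Differences on this scale understate those of low genes. The fit was tested on simulated data. The members and lists were chosen with earlier results of these data known, so list counts are descriptions and no list was tested as a set. Text names all members, ELF3, the called list genes with the largest differences, list genes other than root markers among 5 or fewer called against wild type, and the genes nearest in profile to the members. Alternatives were pseudocounts of 0.1 and 5, no filter or one at 5 TPM, quantile normalization, median-of-ratios scaling, the compared groups alone, a replicate block, each library left out, and, chosen after seeing the data, the root score as a covariate. Tables and figures used Python 3.11.15, pandas 2.3.3, NumPy 2.4.6 and matplotlib 3.10.9. Protein sequences were not used here.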

Additional observations from a re-analysis of the deposited data

Results flagged for a closer look

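These results were picked out because a test of the difference itself, limma's interaction term, found that the change between 2 sampling temperatures differed between a line and wild type at an adjusted p under 0.05. Values are differences of log2 changes, line minus wild type. From 16 to 22 °C in the S364P line, LHCA1 gave 0.42 and LHCA4 gave 0.70, while LHCA5 gave -0.39 and LHCA6 gave -0.55. From 22 to 29 °C in that line, LHCA4 gave -1.02, LHCA5 -0.64 and LHCA6 -0.93. Over the same step the minor antenna genes LHCB4.1, LHCB4.2, LHCB5 and LHCB6 gave -0.43, -0.71, -0.84 and -0.79. From 16 to 22 °C in the insertion line, LHCA5 gave -0.66, LHCA6 -0.79 and LHCB6 -0.59. From 22 to 29 °C in the insertion line, LHCA4 gave -0.82, LHCA5 -0.30, LHCA6 -0.56, LHCB5 -0.42 and LHCB6 -0.37. Both lines' terms use the same wild-type libraries. The protocol is read as 1 sampling time for each temperature, so the terms compare sampling conditions.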

How the results depend on the processing

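The filter at 5 TPM and the pseudocount of 5 moved no count of members by more than 1.5 times. With a pseudocount of 0.1, without the filter, under median-of-ratios scaling, with the compared groups alone and with the root score, 0 members in place of 1 rose from 16 to 22 °C in the insertion line. Without the filter 1 member was lower in the S364P than the insertion line at 16 °C and 1 had a more positive S364P change from 16 to 22 °C. Under median-of-ratios scaling 3 members rose in the S364P line at 16 °C, 2 in the insertion line at 16 °C, 1 at 29 °C and 0 in wild type from 16 to 22 °C. At 16 °C 3 were then higher and 0 lower in the S364P than the insertion line, and the S364P change from 16 to 22 °C was more positive for 1 and more negative for 1. Under quantile normalization 1 member was higher in the S364P than the insertion line at 16 °C, 4 rose and 2 fell in wild type from 16 to 22 °C, 5 rose in the S364P line and 4 in the insertion line, and 2 insertion-line changes were more positive. It also changed the sign of 4 values. LHCA3 and LHCA4 between the lines at 22 °C went from 0.36 and 0.41 to -0.02 and -0.00, where no difference was left. LHCA3 from 16 to 22 °C in the insertion line went from -0.06 to 0.14. The insertion-line LHCA1 interaction over that step went from -0.00 to 0.32. Neither of these last 2 was called in the main fit. With the compared groups alone 1 was lower in the S364P than the insertion line at 16 °C, 2 rose in wild type and 6 in the S364P line from 16 to 22 °C, and 2 insertion-line changes from 22 to 29 °C were more negative. With the root score, chosen after seeing the data, 7 fell in the S364P line at 29 °C, 5 in the insertion line at 22 °C, 3 rose in wild type from 16 to 22 °C, and 1 S364P change over that step was more positive. For all of these the cause was not tested.

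With any 1 library left out, 1284 values of single members kept their direction and side of the threshold, 19 passed it anew and 77 no longer did. Members higher in the S364P than the insertion line numbered 3 to 5 at 16 °C, with 0 to 2 lower, and 0 to 3 at 29 °C. Members that rose in the insertion line at 16 °C numbered 3 to 5, in wild type from 16 to 22 °C 1 to 2, and in the insertion line over that step 0 to 1. The S364P change over it was more positive for 1 to 2 members and more negative for 1 to 2.

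Replicate numbers did not pair the libraries: of 39 same-numbered pairs, 8 had deviations correlated above 0.1 (range -0.234 to 0.263), and in 0 of 15 comparisons did all pairs. With the number as a replicate block, and without the 2 libraries that carry none, 1 member fell in the insertion line at 16 °C, 1 was higher and 0 lower in the S364P than the insertion line at 16 °C, 1 was higher at 29 °C, and 0 rose in the insertion line from 16 to 22 °C. The block leaves 1 library of the insertion line at 16 °C, assumed to vary like the other groups. Depth is unknown for TPM, so its limit on low genes such as LHCA6 cannot be given.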
